A study of Rattus norvegicus with 4 samples.

Results

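The Dlk1-Dio3 domain is an imprinted region whose noncoding transcripts carry a large group of miRNA hairpins. Its miRNAs were taken from the array by spot name: any probe named for one of 42 hairpin stems of the domain, with or without a copy letter or an arm, was counted. This gave 83 of the 761 rat miRNA probes on the array. RefSeq held a mature sequence for 81 of them, and all 81 lay between Dlk1 and Dio3 on chromosome 6 of the GRCr8 build (chr6:134298094-134579828, a span of 281.7 kb). The other 2, miR-127-5p and miR-136-5p, were counted by name.

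The arrays compared liver sinusoidal endothelial cells (LSECs), the cells that line the liver's capillaries, with primary hepatocytes, the liver's parenchymal cells. Both came from livers of male Sprague-Dawley rats of 10 weeks that had received no treatment. Total RNA was labelled with the red dye Cy5 and hybridised to Toray 3D-Gene arrays, with 2 arrays for each cell type. The labels do not say whether the replicates came from separate animals, so the p-values measure only the spread between these arrays, which may be technical.

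In mice, the miRNAs of the domain are made from the maternally inherited allele, inside or next to the long noncoding transcripts Meg3, Rian and Mirg and a transcript antisense to Rtl1, while the protein-coding genes Dlk1, Rtl1 and Dio3 are expressed from the paternal allele. The miRNAs are abundant in embryo, placenta and brain and are low in most other adult tissues. A mature miRNA is cut from either arm of its hairpin (5p or 3p), and its seed, bases 2 to 8, does most of the work of choosing target mRNAs.

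Along the rat chromosome the probes fell into 3 stretches. The hairpins from miR-379 to miR-410, which in mouse sit in and around Mirg, had 63 probes. The stretch named here for the antisense transcript of Rtl1 (miR-493 to miR-136) had 14 probes, and its miR-431, miR-433, miR-127, miR-434 and miR-136 lay within the annotated span of Rtl1. The remaining hairpins, miR-770, miR-673 and miR-370, had 6 probes, and miR-770 lay within Meg3.

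The sequences below are the mature miRNAs whose values the results turn on, from RefSeq (GRCr8), written 5′ to 3′ with the seed in capitals. The first 4 were called higher in LSECs and the next 11 were called higher in hepatocytes, as defined below. The direction of the 11 depended on how the arrays were scaled, as given further below.
miR-494-3p: uGAAACAUacacgggaaaccucu
miR-381-3p: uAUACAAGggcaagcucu
miR-770-3p: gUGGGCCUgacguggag
miR-667-5p: cGGUGCUGguggagcagugagcac
miR-487b-3p: aAUCGUACagggucauccacuu
miR-770-5p: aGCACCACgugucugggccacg
miR-134-3p: cUGUGGGCcaccuagucaccaa
miR-409b: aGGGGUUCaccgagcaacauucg
miR-433-5p: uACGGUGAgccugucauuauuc
miR-323-5p: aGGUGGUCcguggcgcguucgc
miR-376b-3p: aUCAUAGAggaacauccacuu
miR-668: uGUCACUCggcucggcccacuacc
miR-382-5p: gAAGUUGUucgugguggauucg
miR-412-3p: cUUCACCUgguccacuagccgu
miR-494-5p: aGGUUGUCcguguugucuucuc
No seed occurred more than once among these 15. Over all 81 sequences there were 75 distinct seeds. Only 5 seeds were shared between members: those of miR-381-3p with miR-539-3p, miR-376b-5p with miR-376c-5p, the 3p and the 5p arms of miR-299a and miR-299b, and miR-494-5p with miR-496-5p and miR-410-5p. Of these, miR-381-3p was called while miR-539-3p was detected on no array. miR-494-5p was called (-0.16) while miR-496-5p (-0.05) and miR-410-5p (0.01) were not. Members that share a seed were not tested against each other.

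Levels are given below as the authors' processed intensity, a brightness scaled so that the median of the listed probes was 25 on each array. Probes differ in how brightly they hybridise, so levels are compared only between arrays for the same probe. Differences, LSEC minus hepatocyte, are on the log2 scale of the background-corrected and quantile-normalised spot intensities, with their standard error (SE) from limma over 2 arrays per cell type. An offset of 50 added to the intensities pulls the differences of dim probes towards 0. A miRNA was called where its limma p, adjusted by Benjamini-Hochberg over the 652 miRNAs tested, was under 0.05.

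The RNA matched its labels. miR-126a-3p, an endothelial miRNA, had levels of 67716 and 63106 in LSECs and 46.5 and 81.3 in hepatocytes. miR-122-5p, the main miRNA of hepatocytes, had 169 and 110 in LSECs and 51468 and 59303 in hepatocytes. LSEC arrays showed more miRNAs above the blank spots (680 and 660 of 761) than hepatocyte arrays (563 and 596).

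Most miRNAs of the domain were dim in both cell types. In LSECs 66 and 66 of the 83 probes lay above the detection limit (the mean of the blank spots plus 2 SD), a share of 79.5% on each array. In hepatocytes 62 and 64 did, or 74.7% and 77.1%. For all other miRNAs the shares were 90.6% and 87.6% in LSECs and 73.9% and 78.5% in hepatocytes. With a limit of 5 SD, 46 and 39 of the 83 remained in LSECs and 22 and 20 in hepatocytes, so many of the detected members stood only just above the blanks.

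Detection differed from member to member. There were 45 members above the limit on all 4 arrays, 19 on 3 arrays, 7 on 2 and 7 on 1. The 5 detected on no array were miR-411-5p, miR-758-3p, miR-495, miR-539-3p and miR-410-3p. Over all miRNAs, 482 of 761 were detected on all arrays and 30 on none. The members detected on all 4 arrays had a median GC content of 52.4% (n = 44 with a sequence) and the others 42.9% (n = 37). The same direction held for miRNAs outside the domain (50% and 42.9%), and the part of base composition in the detection of the members was not tested.

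Of the 83 probes, 66 were tested, since they lay above the limit on both LSEC arrays, both hepatocyte arrays or all of these. In the limma fit over all miRNAs with Benjamini-Hochberg adjustment, 4 of the 66 were called higher in LSECs and 11 higher in hepatocytes, and 51 were not called. The share called was 22.7%, against 37.0% of all 652 miRNAs tested (18.6% called higher in LSECs, 18.4% in hepatocytes). The median difference of the 66 was -0.03, against 0.00 over all miRNAs tested. Differences lay above 0 for 24 members and below 0 for 42, with an interquartile range of -0.15 to 0.04. On the normalised scale both LSEC arrays lay above both hepatocyte arrays for 15 members, and both hepatocyte arrays above both LSEC arrays for 31, while over all miRNAs tested these shares were 36.5% and 34.8%. The order of the shares called depended on the scaling of the arrays. Median scaling called 59.1% of members against 57.5% of all miRNAs tested, and 75th percentile scaling 90.9% against 74.4%. The member share was lower with cyclic loess (21.2% against 33.0%), spike scaling (47.0% against 69.6%) and no normalisation (10.6% against 27.1%). It was also lower in the authors' values (51.1% against 63.7%).

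**Figure D1:**
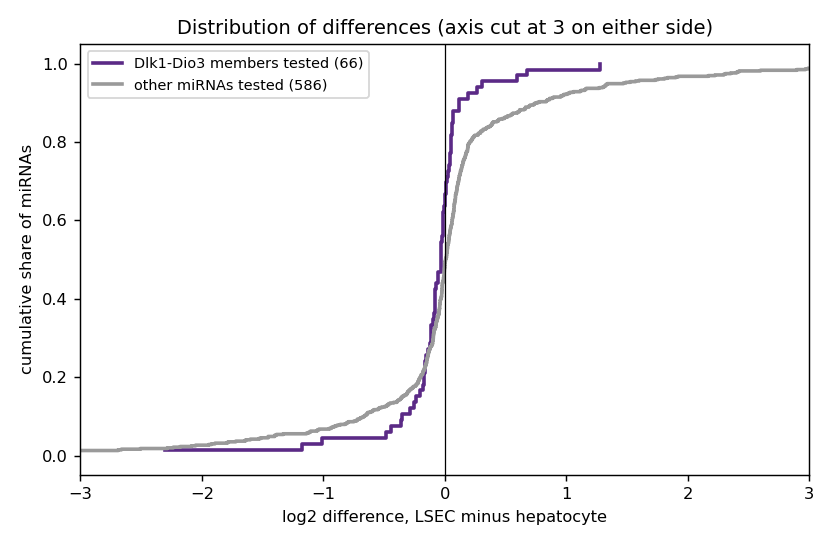
Cumulative share of miRNAs (y axis) by log2 difference, LSEC minus hepatocyte (x axis), for the 66 Dlk1-Dio3 members tested and the 586 other miRNAs tested. The member curve is steeper around 0, with its median at -0.03, and its members extend from -2.30 to 1.28.

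The calls were scattered over the domain. In the miR-379 to miR-410 stretch 3 members were higher in LSECs and 9 in hepatocytes, of 48 tested. In the antisense-Rtl1 stretch none of 13 was called higher in LSECs and 1 was called higher in hepatocytes. Of the 5 tested members of the remaining hairpins, 1 was called in each direction. The shares called in these stretches were 25.0%, 7.69% and 40.0% in this order, against 37.0% of all miRNAs tested. On the quantile-normalised scale neighbouring miRNAs did not all take the same direction. miR-381-3p, called higher in LSECs, is followed along the chromosome by the miR-487b hairpin, whose 3p arm was called higher in hepatocytes. With the arrays scaled to the spiked-in control spots, miR-487b-3p was at -0.0045 and was not called.

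**Figure D2:**
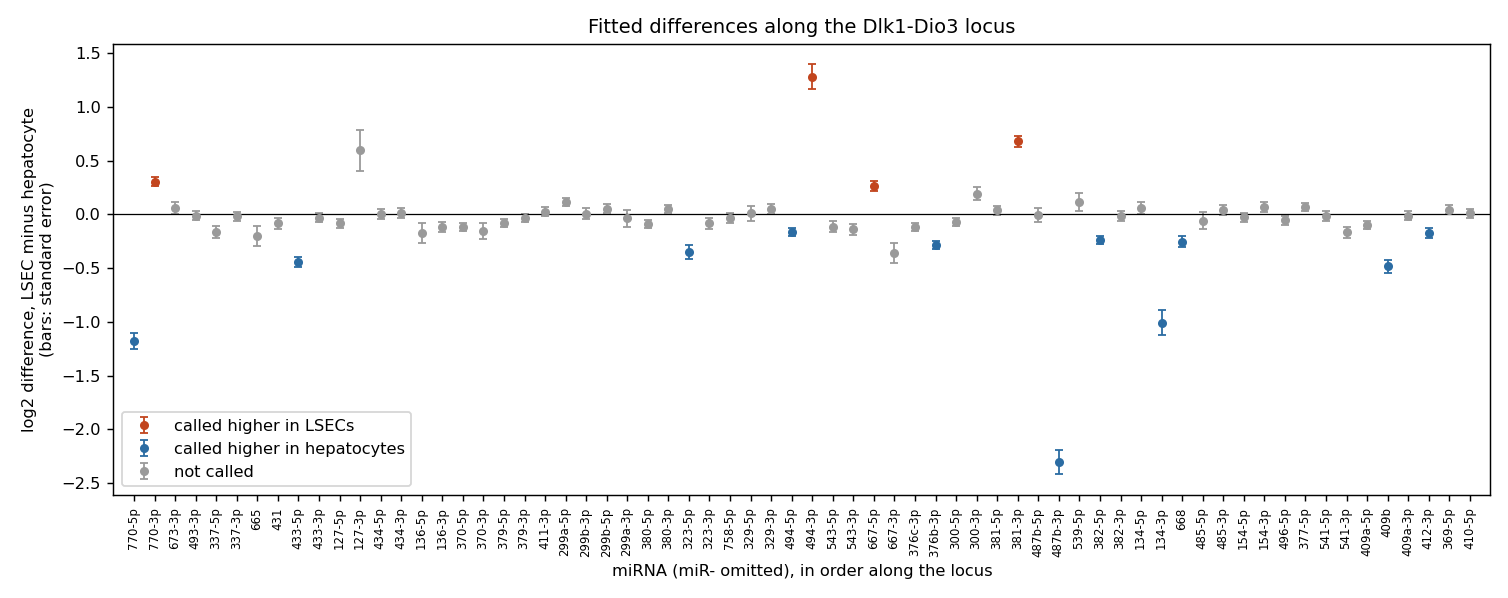
Log2 difference, LSEC minus hepatocyte (y axis, bars are standard errors from limma, 2 arrays per cell type), for the 66 tested members in their order along the chromosome (x axis). Most points lie close to 0, and miR-494-3p (1.28) and miR-487b-3p (-2.30) stand farthest out in opposite directions.

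miR-494-3p had the largest quantile-normalised difference of the members called higher in LSECs. Its hairpin belongs to the miR-379 to miR-410 stretch (mature sequence at chr6:134550163-134550185, plus strand). Its level was 4461 and 4938 in LSECs, against 759 and 914 in hepatocytes. Both LSEC arrays lay far above both hepatocyte arrays. The fitted difference was 1.28 ± 0.11 (SE, adjusted p = 0.00248), and on the authors' own scale it was 2.50. Without LSEC replicate 2 its adjusted p was 0.0549 with a difference in the same direction.

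miR-381-3p (chr6:134562422-134562439, plus strand) was the other member called higher in LSECs under every scaling of the arrays tried. It had levels of 95.2 and 81.5 in LSECs, against 11.9 and 11.9 in hepatocytes. The hepatocyte values lay close to the lowest levels listed on those arrays (8.4 and 8.2). The fitted difference was 0.68 ± 0.05 (adjusted p = 0.00144), and 2.89 on the authors' scale, where no offset is added.

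miR-770-3p, from the hairpin within Meg3, had levels of 76.7 and 72.0 in LSECs, against 28.2 and 26.0 in hepatocytes. miR-667-5p had 143 and 155 in LSECs, against 54.9 and 64.1 in hepatocytes. For both, the cell types did not overlap. The difference of miR-770-3p was 0.31 ± 0.04 (adjusted p = 0.0102), and that of miR-667-5p was 0.26 ± 0.05 (adjusted p = 0.0189). miR-770-3p was no longer called without either LSEC replicate (adjusted p = 0.122 without replicate 1 and 0.111 without replicate 2). miR-667-5p was no longer called without any 1 of the 4 arrays, with adjusted p up to 0.188.

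miR-487b-3p (chr6:134562939-134562960, plus strand) was called higher in hepatocytes, with the difference largest in size among the members on the quantile-normalised scale. Its level was 815 and 812 in LSECs, against 1800 and 2294 in hepatocytes. The LSEC arrays were nearly equal and both were lower than the hepatocyte arrays. The difference was -2.30 ± 0.11 (adjusted p = 0.000435), but -1.32 on the authors' scale. The call held without any 1 of the arrays.

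miR-770-5p had levels of 85.7 and 80.5 in LSECs, against 159 and 201 in hepatocytes, and a difference of -1.17 ± 0.07 (adjusted p = 0.000973). miR-134-3p comes from the hairpin whose 5p arm, miR-134, represses Limk1 in rat neurons. Its level was 63.3 and 61.9 in LSECs, against 111 and 162 in hepatocytes, and the difference was -1.01 ± 0.12 (adjusted p = 0.00546). These 3 members, miR-487b-3p, miR-770-5p and miR-134-3p, had fitted differences of at least 2-fold on the quantile-normalised scale, and so did miR-494-3p among those higher in LSECs. On the authors' scale, without the offset, miR-770-3p (1.46), miR-667-5p (1.33) and miR-381-3p of the members higher in LSECs also passed 2-fold, as did miR-376b-3p and miR-382-5p of those higher in hepatocytes. The call of miR-770-5p held without any 1 array, while miR-134-3p had adjusted p = 0.0966 without LSEC replicate 1 and 0.109 without LSEC replicate 2.

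The other 8 members called higher in hepatocytes had fitted differences between -0.48 and -0.16. miR-409b is written on the minus strand, opposite miR-409a-3p, with which it shares 20 of its 23 bases as reverse complement. It had levels of 27.7 and 30.3 in LSECs, against 47.6 and 58.9 in hepatocytes (difference -0.48 ± 0.06, adjusted p = 0.0058). Its partner miR-409a-3p had 40.7 and 44.9 in LSECs, against 29.7 and 30.9 in hepatocytes, and was not called (-0.01 ± 0.04, adjusted p = 0.845).

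miR-433-5p, from the Rtl1 stretch, had 33.5 and 26.9 in LSECs, against 46.8 and 53.7 in hepatocytes (-0.44 ± 0.05, adjusted p = 0.00467). miR-323-5p had 38.5 and 26.4 in LSECs, against 48.6 and 44.3 in hepatocytes (-0.35 ± 0.07, adjusted p = 0.023). In both, the hepatocyte arrays lay above the LSEC arrays. For miR-323-5p the LSEC replicates stood farther apart than the hepatocyte replicates on the authors' scale, but not on the quantile-normalised scale.

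miR-376b-3p belongs to the miR-376 family, whose precursors are edited from adenosine to inosine in mouse and human tissues. It had 10.8 and 9.8 in LSECs, against 25.1 and 29.0 in hepatocytes (-0.28 ± 0.04, adjusted p = 0.00877). miR-382-5p had 11.8 and 7.6 in LSECs, against 24.5 and 24.8 in hepatocytes (-0.24 ± 0.04, adjusted p = 0.0146). For these dim probes the authors' scale gave larger differences, -1.39 for miR-376b-3p and -1.38 for miR-382-5p.

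miR-412-3p had 18.6 and 17.0 in LSECs, against 26.4 and 25.0 in hepatocytes (-0.17 ± 0.04, adjusted p = 0.0471). miR-494-5p had 20.3 and 20.9 in LSECs, against 25.0 and 28.6 in hepatocytes (-0.16 ± 0.04, adjusted p = 0.0403). The cell types did not overlap for either. miR-668 had 52.4 and 50.8 in LSECs, against 46.5 and 55.8 in hepatocytes, so its cell types overlapped on the authors' scale. Its call (-0.25 ± 0.05, adjusted p = 0.0268) came with a difference of 0.02 on that scale. All 8 lost their calls without LSEC replicate 1 and without LSEC replicate 2, and the highest adjusted p among them was 0.264. miR-323-5p also lost its call without either hepatocyte array (adjusted p = 0.0839 and 0.0564), miR-412-3p without hepatocyte replicate 1 (0.052) and miR-494-5p without hepatocyte replicate 2 (0.0568).

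**Figure D3:**
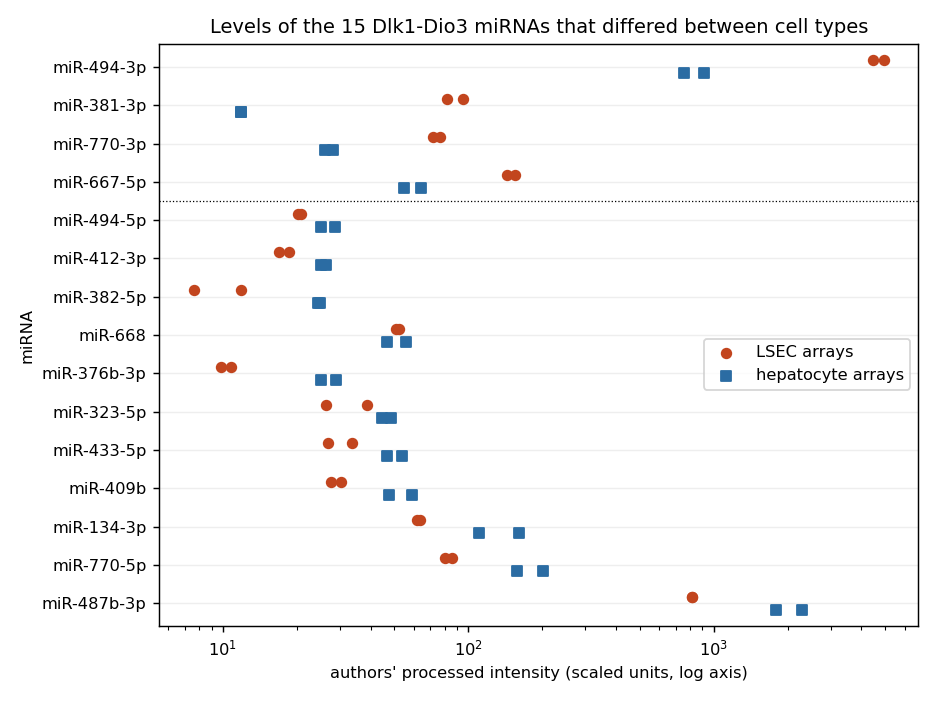
Authors' processed intensity on a log axis (x) for the 15 called members (y), with 2 LSEC arrays and 2 hepatocyte arrays each; the dotted line parts the 4 called higher in LSECs from the 11 called higher in hepatocytes. The cell types overlap on this scale only for miR-668.

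The 2 arms of a hairpin come from the same precursor, and their contrast is taken within each array. The contrast still moved with the scaling of the arrays, as given below. The 5p minus 3p difference was tested between cell types for the 213 hairpins with both arms tested, of which 116 were called (54.5%). Of the 25 hairpins of the domain, 8 were called. Here a negative difference means that the 5p arm was lower relative to the 3p arm in LSECs than in hepatocytes. Where 1 arm is dim, the offset holds its difference near 0, and the contrast then mostly restates the other arm. Of the called hairpins, those of miR-433, miR-494, miR-487b, miR-381, miR-134 and miR-127 had 1 arm under 30 on every array.

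The hairpin rno-miR-770 (rno for Rattus norvegicus) had both arms called, in opposite directions on the quantile-normalised scale. With spike scaling both arms lay above 0, at 0.13 (5p) and 0.94 (3p). The sequence of the hairpin is shown with the 2 mature arms in capitals (RefSeq, GRCr8, chr6:134298084-134298159, plus strand), because both arms were called.
Mir770: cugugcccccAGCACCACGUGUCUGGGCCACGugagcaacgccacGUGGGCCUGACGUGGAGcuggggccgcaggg
The log2 value of its 5p arm minus that of its 3p arm was 0.05 and 0.05 on the LSEC arrays, against 1.41 and 1.65 on the hepatocyte arrays. The difference was -1.48 (limma adjusted p = 0.000123). The arm contrast of rno-miR-494 was called as well. It was -5.06 and -5.18 in LSECs, against -3.56 and -3.79 in hepatocytes (difference -1.44, adjusted p = 0.000164). Both arms of rno-miR-494 were called in opposite directions on the quantile-normalised scale too. With spike scaling both lay above 0, at 0.205 (5p) and 3.594 (3p).

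In the hairpin rno-miR-487b the 5p arm was dim, at 21.8 and 22.6 in LSECs, against 23.0 and 16.7 in hepatocytes. The fitted difference of that arm was -0.01 ± 0.07 (adjusted p = 0.932), while the 3p arm of the hairpin was called higher in hepatocytes. Its arm contrast was -2.54 and -2.65 in LSECs, against -4.68 and -5.10 in hepatocytes, a difference of 2.29 (adjusted p = 8.61e-05). In the hairpin rno-miR-134 the contrast was -0.48 and -0.38 in LSECs, against -1.38 and -1.62 in hepatocytes, a difference of 1.07 (adjusted p = 0.000543). The 5p arm of miR-134 was not called (0.06 ± 0.06, adjusted p = 0.469).

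The hairpins rno-miR-381 (-0.64, adjusted p = 0.00128) and rno-miR-667 (0.62, adjusted p = 0.00379) were also called. For rno-miR-667 the contrast was 0.14 and 0.30 in LSECs, against -0.32 and -0.49 in hepatocytes, with levels of the 3p arm of 115 and 102 in LSECs, against 79.5 and 112 in hepatocytes. The 3p arm alone was not called (-0.36 ± 0.09, adjusted p = 0.0526). The remaining 2 were rno-miR-433 (-0.41, adjusted p = 0.00891) and rno-miR-127 (-0.68, adjusted p = 0.0278). Under 6 other scalings of the arrays, the contrasts of miR-494, miR-770 and miR-667 were called in all 6 and that of miR-381 in all 5 that gave a value. Those of miR-487b and miR-134 were called in 4 of 6, but under spike scaling they were 0.30 and 0.13 and were not called. The contrast of miR-433 was called in 2 of 6 and turned to 0.10 under spike scaling, and that of miR-127 was called in 3 of 5. With 1 array left out at a time, the contrast of miR-433 was called in 2 of 4 fits and not without LSEC replicate 1 (adjusted p = 0.0677) or LSEC replicate 2 (adjusted p = 0.113). That of miR-127 was called in 1 of 4 fits, and without LSEC replicate 2 it was -0.34 (adjusted p = 0.0855). The other 6 contrasts were called in all 4 fits.

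**Figure D4:**
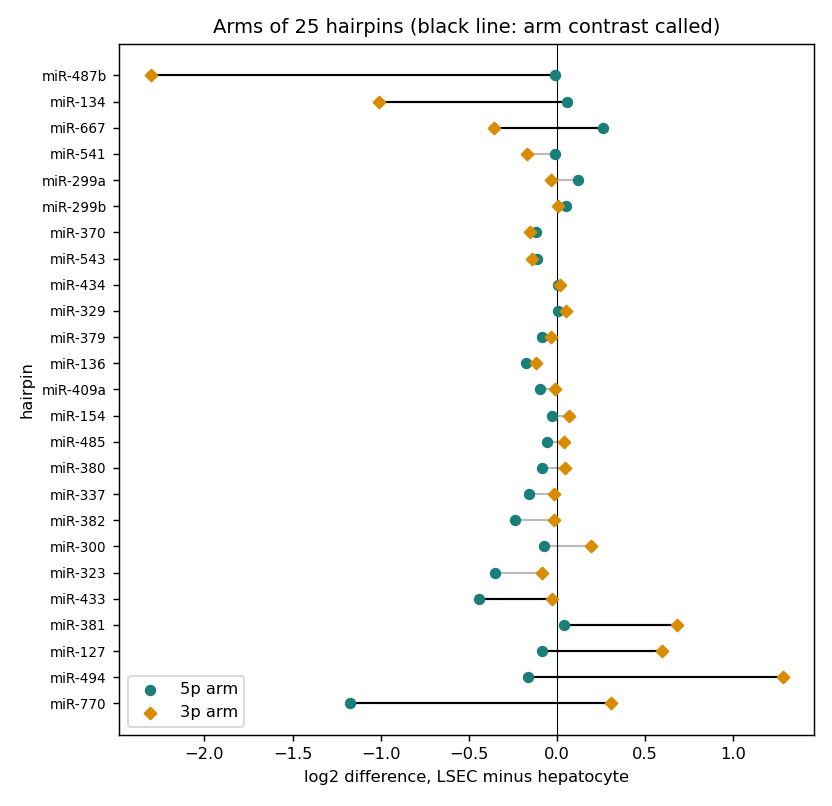
Log2 difference, LSEC minus hepatocyte (x axis), of the 5p arm (circles) and the 3p arm (diamonds) of the 25 hairpins of the domain with both arms tested (y axis), joined by a line that is black where the arm contrast was called. The arms of miR-770 and miR-494 lie on opposite sides of 0, and most of the other pairs lie close together.

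miR-127 and miR-136 lie antisense to Rtl1, a retrotransposon-derived gene, and in mouse they repress it. miR-127-3p had levels of 40.2 and 107 in LSECs, against 10.9 on 1 hepatocyte array and no listed value on the other. Both LSEC arrays lay above the hepatocyte arrays but differed widely from each other, and the difference was not called (0.60 ± 0.19, adjusted p = 0.083). Without LSEC replicate 1 it was called (0.77, adjusted p = 0.0282). miR-127-5p was not called (-0.08 ± 0.04, adjusted p = 0.219).

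miR-136-5p was listed at 5.9 on 1 of the LSEC arrays, against 20.7 and 10.1 in hepatocytes, and miR-136-3p had 4.1 and 6.0 in LSECs, against 11.2 and 17.4 in hepatocytes. Neither was called (-0.18 ± 0.09 with adjusted p = 0.221 for the 5p arm and -0.12 ± 0.05 with adjusted p = 0.146 for the 3p arm). Among the others of that stretch, miR-665 had 55.6 and 44.8 in LSECs, against 51.6 and 40.7 in hepatocytes (-0.20 ± 0.09, adjusted p = 0.173). The cell types overlapped for miR-665. The arms of miR-434 differed by 0.00 ± 0.05 (5p) and 0.01 ± 0.05 (3p) between the cell types, with adjusted p of 0.965 and 0.845.

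miR-370-3p, which represses the fatty acid oxidation enzyme CPT1A in human liver cells, was measured well above the blanks and was not called. It had 266 and 300 in LSECs, against 173 and 185 in hepatocytes. On this scale its LSEC arrays lay above its hepatocyte arrays. The quantile-normalised difference was -0.15 ± 0.07 (adjusted p = 0.182), while the same test on the authors' values gave 0.66 with adjusted p = 0.0199. No direction is therefore given for miR-370-3p. miR-370-5p was not called (-0.12 ± 0.04, adjusted p = 0.0762).

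The miR-379 to miR-410 stretch is known in mice for a role in the energy balance of newborns, when the whole cluster is deleted. Its best known members were mostly at the edge of detection. miR-379-5p was listed at 3.7 on 1 of the LSEC arrays, against 10.3 and 11.5 in hepatocytes (-0.08 ± 0.04, adjusted p = 0.161). miR-410-5p had 5.6 and 8.1 in LSECs, against 8.6 on 1 of the hepatocyte arrays (0.01 ± 0.04, adjusted p = 0.905). miR-411-3p had 6.3 and 9.3 in LSECs, against 8.9 on 1 of the hepatocyte arrays (0.03 ± 0.04, adjusted p = 0.698).

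The main arms of these hairpins in mammals, miR-410-3p and miR-411-5p, were above the limit on no array, and neither was miR-495. miR-376a-3p was detected on 1 hepatocyte array (20.5) and on no LSEC array, and was not tested. miR-376c-3p had 3.7 on 1 of the LSEC arrays, against 11.7 and 13.3 in hepatocytes (-0.12 ± 0.04, adjusted p = 0.0894). The 3p arms of miR-541 and miR-543 had differences of -0.17 ± 0.05 (adjusted p = 0.0747) and -0.14 ± 0.05 (adjusted p = 0.101). Both hepatocyte arrays lay above both LSEC arrays for each of these 2 members, and neither was called. The companion arms miR-379-3p, miR-382-3p, miR-409a-5p, miR-541-5p, miR-543-5p and miR-154-5p had differences between -0.11 and -0.01, with no call. miR-376a-5p, miR-376b-5p and miR-376c-5p were each above the limit on at most 1 array of a cell type and were not tested.

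miR-154-3p and miR-380-3p were detected on both LSEC arrays and on no hepatocyte array, and no member showed the opposite. Over all 761 miRNAs this pattern was seen for 47 and its opposite for 5. miR-154-3p had 6.7 and 10.1 in LSECs and was not well above background in hepatocytes. Its fitted difference was 0.07 ± 0.05 and was not called (adjusted p = 0.316). miR-380-3p had 4.5 and 4.4 in LSECs and was not called either (0.05 ± 0.04, adjusted p = 0.411). Both entered the test only through the LSEC arrays, and no fold is given for them. For both members the LSEC signal lay close to the detection limit.

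The 51 members tested and not called had levels of 3.7 to 300.3, and 45 of them stayed under 30 on every array. Their differences ran from -0.36 to 0.60, and 48 of the 51 lay within 0.2 of 0 on the log2 scale. Their median SE was 0.046. The unadjusted 95% intervals of the differences reached down to -0.63 (miR-667-3p) and up to 1.13 (miR-127-3p). Both of these intervals left out 0, and these members went uncalled only after adjustment over all miRNAs tested. Differences of that size are therefore not excluded for uncalled members. Since the offset compresses dim probes, a small fitted difference does not show equal RNA amounts.

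The direction of the members called higher in hepatocytes depended on how the arrays were put on a common scale. All 4 members called higher in LSECs kept their direction under 6 other scalings, and 2 of them, miR-494-3p and miR-381-3p, were called under all 6. Of the 11 called higher in hepatocytes, 10 were also lower in LSECs in the authors' values and without any normalisation, with miR-668 as the exception. Scaled to the spiked-in control spots, only miR-487b-3p of the 11 stayed below 0 (at -0.0045), and none of the 11 was called in that direction. The rest of the 11 lay above 0, as far as 0.486 (miR-668). Of the 66 members tested, that scaling called 31 higher in LSECs and 0 higher in hepatocytes. That scaling moved the median of all miRNAs to 0.27. Relative to the median of all miRNAs, 10 of the 11 kept their direction under all 6 scalings, the exception again being miR-668, and so did all 4 members called higher in LSECs. Subtracting that median takes out part of what the scalings change, so the kept direction is not an independent check of the calls.

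**Figure D5:**
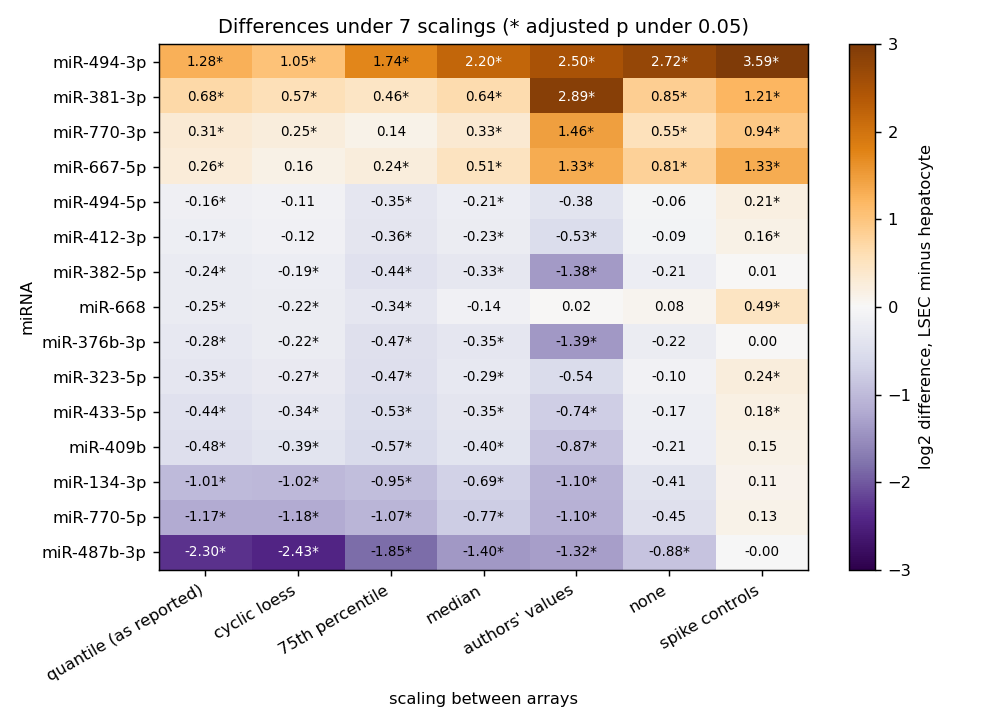
Log2 difference, LSEC minus hepatocyte, of the 15 called members (rows) under 7 scalings of the arrays (columns), with an asterisk where the adjusted p was under 0.05. The upper 4 rows stay above 0 in every column, and in the spike-control column only miR-487b-3p of the lower 11 is below 0.

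The lists of markers named for other liver cells also differed between the cell types. All 5 stellate and mesenchymal miRNAs of the marker list were called higher in LSECs, with a summed level of 2507 and 1966 in LSECs, against 106 and 131 in hepatocytes. miR-199a-3p of that list was not listed on either hepatocyte array. All 7 miRNAs of the leukocyte and Kupffer cell list were called higher in LSECs. Their levels summed to 6595 and 6922 in LSECs, against 107 and 101 in hepatocytes, and miR-155-5p was listed on no hepatocyte array. Within these sums miR-146a-5p had 3243 and 3078 in LSECs, and miR-511-3p had 989 and 894. Whether LSECs themselves express the miRNAs of these lists was not tested, so the sums do not measure other cells.

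The 5 hepatocyte markers summed to 244 and 187 in LSECs, against 62551 and 72914 in hepatocytes, with miR-802-5p listed on no LSEC array. Of 4 cholangiocyte and epithelial markers tested, 3 were higher in hepatocytes, with sums over the list of 43.4 and 53.6 in LSECs, against 146 and 190 in hepatocytes. Both endothelial markers were higher in LSECs. The 4 neural markers summed to 79.2 and 79.4 in LSECs, against 67.5 and 51.9 in hepatocytes, with 1 of them, miR-128-3p, called higher in LSECs. Neither of 2 muscle markers tested was called, and the only erythroid marker tested, miR-451-5p, was higher in hepatocytes. The part of these other cells in the differences of the Dlk1-Dio3 members was not tested. In such bulk RNA, fewer cells that express a miRNA and less of it per cell cannot be told apart.

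The naming rule left out 19 other probes whose miRNAs lie in the annotated region from Dlk1 to Dio3, some of them, such as miR-1247-3p, far from the members. Of these, 17 were tested, 2 were called higher in LSECs and 5 higher in hepatocytes. miR-1247-3p had 942 and 900 in LSECs, against 141.7 and 154.3 in hepatocytes (1.27, adjusted p = 0.000104). miR-1188-3p had 359 and 356 in LSECs, against 1193 and 1426 in hepatocytes (-2.69, adjusted p = 2.7e-05). miR-540-3p had 76.0 and 66.4 in LSECs, against 190.5 and 215 in hepatocytes (-1.40, adjusted p = 0.000132). Both directions occurred among these probes, as they did over all miRNAs tested (18.6% called higher in LSECs, 18.4% in hepatocytes).

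Imprinted miRNAs of other loci (miR-296, miR-298, miR-483 and miR-675) had 8 probes, with a median difference of 0.08. None was called higher in LSECs and 2 were called higher in hepatocytes. The share called was 25%, against 37.0% of all miRNAs tested. The calls were miR-483-5p, from an intron of Igf2, at 50.1 and 44.1 in LSECs, against 624 and 793 in hepatocytes, and miR-675-5p, from H19, at 114 and 101 in LSECs, against 101 and 102 in hepatocytes. The cell types overlapped for miR-675-5p on the authors' scale.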

How the data were processed

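The authors deposited one scanner file for each array. Per the file headers these hold, for every spot, the median intensity in the red channel, a background column, and a processed column. Compared with the spot medians, the deposited processed intensity was the median minus the mean of the blank spots, times a constant for the array. The image analysis settings are not given in the sources used here. From the deposited spot medians, 761 miRNA probes on 4 arrays were background-corrected by normexp with an offset of 50, fitted on all spots, quantile-normalised over the miRNA probes and log2-transformed. Detection was set at the mean of the blank spots, trimmed by 5% on each side, plus 2 SD, and 652 miRNAs above it on both arrays of a cell type were tested.

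Cell types came from the sample titles. Differences were fitted with limma 3.58.1 (lmFit and eBayes, R 4.3.3) and adjusted by Benjamini-Hochberg with a threshold of 0.05, and the arm contrasts likewise. The fits were tested on simulated data. The members and lists were chosen with earlier results of these data known. Named members were all those called, those detected in 1 cell type only, the 3 brightest of each stretch, the arms of a preset list of hairpins, and both arms of hairpins with a called contrast. The 19 other probes of the locus were described after their values were seen. Alternatives were 18 other settings of background, scaling, filter, model and arrays left out. The number of arrays limits the precision. Sequences were matched by miRNA name to RefSeq (GRCr8).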

Additional observations from a re-analysis of the deposited data

How the results depend on the processing

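The 4 members called higher in LSECs kept their direction under every scaling and with each array left out. Values moved as follows, against 37.0% of all tested miRNAs called, 4 members higher in LSECs, 11 higher in hepatocytes, a member median of -0.033 and 116 hairpins. The causes were not tested. Changes of sign are listed only for the named members, and only where the member was called under either setting. Members that were not named also changed sign: 24 of the 66 lay above 0 as reported and 5 with 75th percentile scaling. With the deposited background column subtracted 3.07% of all miRNAs were called, with 0 and 0 members higher in LSECs and in hepatocytes, a member median of -0.0941 and 13 hairpins, and miR-376b-3p (0.0165) and miR-412-3p (0.0688) changed sign. That column itself followed the signal (r = 0.964 to 0.982 across spots of an array). Without normalisation 1 member was higher in hepatocytes, and miR-668 (0.0836) and miR-370-3p (0.709) changed sign. Of all calls, 50.2% were higher in LSECs as reported, 84.7% without normalisation, 40.8% with median scaling, 24.1% with 75th percentile scaling, 95.4% with spike scaling and 63.8% in the authors' values. The median of all miRNAs was 0.00 as reported and 0.03, -0.09, -0.21, 0.27 and 0.28 in the same order.

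Median scaling called 57.5% of all miRNAs and gave 34 members higher in hepatocytes and a member median of -0.154, and miR-370-3p (0.308) and miR-410-5p (-0.148) changed sign. Scaling to the 75th percentile called 74.4% and gave 57 members higher in hepatocytes and a member median of -0.265, with changed signs for miR-154-3p (-0.159), miR-380-3p (-0.149), miR-410-5p (-0.231), miR-411-3p (-0.214), miR-434-3p (-0.233), miR-434-5p (-0.22), miR-134-5p (-0.184) and miR-381-5p (-0.203). Spike scaling called 69.6% and gave 31 members higher in LSECs, 0 higher in hepatocytes and a member median of 0.134. The sign changed there for miR-134-3p (0.114), miR-323-5p (0.241), miR-376b-3p (0.00376), miR-382-5p (0.00853), miR-409b (0.146), miR-412-3p (0.162), miR-433-5p (0.182), miR-494-5p (0.205), miR-668 (0.486) and miR-770-5p (0.126). It also changed for the uncalled miR-370-3p (1.39), miR-665 (0.499), miR-154-5p (0.187), miR-409a-3p (0.528), miR-487b-5p (0.292) and miR-667-3p (0.793). In the authors' values, which list fewer members on all arrays (45), 63.7% of all miRNAs were called, 17 members were higher in hepatocytes, the member median was -0.367 and 74 hairpins were called, and miR-668 (0.0184), miR-370-3p (0.661) and miR-409a-3p (0.497) changed sign. The member median lay below the median of all miRNAs in all 19 settings, by -0.033 as reported. This gap ran from -0.64 in the authors' values to -0.025 without a detection filter. The settings reuse the same 4 arrays, so their agreement is not independent.

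With 1 array left out at a time, the share of all miRNAs called ranged from 16.1% to 34.6%, members higher in LSECs from 1 to 5 and members higher in hepatocytes from 2 to 11. The lowest counts came without LSEC replicate 1 (16.1%, 3 members higher in LSECs, 2 in hepatocytes) and without LSEC replicate 2 (16.8%, 1 and 2). In such fits the lone array is taken to vary like the other cell type. With the replicate number as a replicate block, 30.4% of all miRNAs were called, with 4 members higher in LSECs and 8 in hepatocytes, and miR-668 (adjusted p = 0.0513), miR-412-3p (0.0997) and miR-494-5p (0.101) were no longer called. The labels do not say that the numbers pair the arrays, and deviations of same-numbered arrays correlated at r = 0.03.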
